A study of Mus musculus with 26 samples.

Results

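Long noncoding RNAs that carry small RNAs in their exons or introns, or that build nuclear bodies, were followed in brown preadipocytes through 7 genes, namely Dnm3os, Mir22hg, Gas5, Snhg1, Snhg12, Neat1 and Malat1. They were chosen by name out of the 52962 genes of the count table. Dnm3os was chosen because insulin raised it in these libraries, and the other 6 to see whether other noncoding host RNAs follow. All 7 passed the filter on low counts (CPM, counts per 1000000 counts of the library, above 0.5 in at least 4 libraries), which left 15402 genes.

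The cells came from mouse brown preadipocytes immortalized with SV40 T-antigen, in which the insulin receptor and the IGF1 receptor had been removed with adenoviral Cre (DKO cells, double knockout). DKO cells received, by retrovirus, the human insulin receptor B isoform (IR), the same receptor with the kinase-dead substitution K1030R, a receptor without its C-terminal tail (∆CT), or a receptor cut back to its juxtamembrane stretch (JMO), which has no kinase domain. All 9 groups therefore derive from cells treated to delete both endogenous receptors, and each receptor stands for 1 stably selected line, so receptor and line cannot be told apart. All cells were starved of serum for 6 h, and the 4 receptor lines were then left basal or given 100 nM insulin for 15 min, while DKO cells were measured in the basal state alone. There were 3 libraries per group and 2 for ∆CT with insulin (26 in all), and since nothing says that they came from separate derivations of a line, p-values measure the spread between these libraries. In bulk RNA, fewer cells of a type and less RNA per cell cannot be told apart.

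The exons of Dnm3os and Mir22hg hold microRNA hairpins that the Drosha and Dicer enzymes cut out of the primary transcript, and the mature microRNAs then guide Argonaute proteins to target mRNAs. Gas5, Snhg1 and Snhg12 hold small nucleolar RNAs in their introns, which guide chemical modification of ribosomal RNA, while their spliced exons are exported and decayed in a manner tied to translation. Neat1 is the scaffold RNA of paraspeckles, and its neighbour Malat1 is an abundant RNA of nuclear speckles. Dnm3os is known as a mesenchymal transcript that is needed for skeletal development, and its microRNAs are linked to fibroblast activation. The libraries were made from polyadenylated RNA, so they show polyadenylated transcripts of these genes and not the microRNAs or small nucleolar RNAs themselves. Gene counts sum over annotated transcripts, so isoforms of Neat1 or of Malat1 cannot be told apart. RNA of these genes without a poly(A) tail may be missed.

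Dnm3os (ENSMUSG00000078190) lies at chr1:162217623-162225550 on the plus strand of GRCm38 and runs antisense inside Dnm3, the gene of a brain-enriched dynamin. Mir22hg (ENSMUSG00000085148) lies at chr11:75461539-75466676 on the plus strand and overlaps the coding gene Tlcd2 on that strand, so that reads could be split between them (11649 counts over all libraries for Mir22hg and 740 for Tlcd2). Both genes hold their microRNAs in exons and on the strand of the host. Their mature sequences, as given by RefSeq on GRCm38.p6, are shown because a rise of the host is a rise of the transcript from which they are cut, with the seed (bases 2 to 8) in capitals.
miR-199a-5p (Dnm3os, chr1:162217844-162217866): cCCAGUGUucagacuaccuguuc
miR-199a-3p (Dnm3os, chr1:162217883-162217904): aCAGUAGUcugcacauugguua
miR-214-5p (Dnm3os, chr1:162223397-162223418): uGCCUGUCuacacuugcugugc
miR-214-3p (Dnm3os, chr1:162223438-162223459): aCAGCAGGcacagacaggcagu
miR-22-5p (Mir22hg, chr11:75463734-75463755): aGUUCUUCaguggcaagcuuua
miR-22-3p (Mir22hg, chr11:75463772-75463793): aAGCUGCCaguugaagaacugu
None of these 6 seeds is shared between the hosts. The miR-199a-3p sequence is also that of miR-199b-3p, which is cut from another gene, and the seed of miR-214-3p is shared with miR-761. The remaining 4 mature sequences had a seed of their own in the RefSeq table.

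The RefSeq promoter window of Dnm3os around its start (chr1:162217373-162217672, GRCm38.p6, plus strand) is shown because it holds a CArG box, the sequence bound by serum response factor, at chr1:162217590-162217599. The capitals mark it.
Dnm3os promoter: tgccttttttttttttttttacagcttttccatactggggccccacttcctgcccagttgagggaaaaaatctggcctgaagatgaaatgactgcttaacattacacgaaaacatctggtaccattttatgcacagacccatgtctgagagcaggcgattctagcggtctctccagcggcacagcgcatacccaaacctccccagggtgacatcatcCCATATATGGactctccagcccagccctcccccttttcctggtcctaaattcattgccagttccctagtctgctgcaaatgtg
The box ends 24 bases before the start. A CArG box was present in 1.63% of the 32851 promoter windows of this length in the RefSeq table. Of 4 other motifs searched on both strands, AP-1 (TGANTCA, 7.81% of windows), CRE (TGACGTCA, 1.79%), EGR (GCGNGGGCG, 5.55%) and the E-box (CACGTG, 7.15%), a single match was found in the windows of the 6 members that have one, namely a CRE in a window of the second annotated start of Gas5, 46 to 39 bases before that start. No promoter window was at hand for Neat1. A match describes letters in a window, and neither a match nor its absence says whether a factor binds there.

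The remaining members are housed as follows. Gas5 (ENSMUSG00000053332, chr1:161034422-161038539, plus strand) holds 10 annotated entries of small nucleolar RNAs, with Snord80 entered more than once. It overlaps Zbtb37 head to head on the opposite strand. Snhg1 (ENSMUSG00000108414, chr19:8723475-8726443, plus strand) holds 8 and starts 106 bases from the divergent Slc3a2, which encodes the heavy chain of amino acid transporters. Snhg12 (ENSMUSG00000086290, chr4:132308623-132311024, plus strand) holds 5, with Snora16a entered more than once. Neat1 (ENSMUSG00000092274, chr19:5824708-5845478) and Malat1 (ENSMUSG00000092341, chr19:5795690-5802672) lie on the minus strand, 22.0 kb apart.

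On a per-length scale the 7 transcripts covered a wide range of levels. The median over the 26 libraries, as CPM per kb of annotated exons, was 322 for Malat1, 35.3 for Gas5, 16.7 for Neat1, 14.8 for Snhg1, 10.5 for Mir22hg, 7.30 for Snhg12 and 5.94 for Dnm3os. The length merges the exons of all annotated transcripts (20.8 kb for Neat1, 3.76 kb for Gas5), and the order depends on it. Without it the median was 347 CPM for Neat1 and 133 CPM for Gas5. Together the 7 genes took 0.211% to 0.398% of all counts in a library. Replicates lay close together for most of them, with a median coefficient of variation within groups of 1.94% for Gas5, 4.36% for Snhg1, 4.49% for Neat1, 4.55% for Dnm3os, 6.34% for Snhg12 and 6.40% for Mir22hg. Malat1 spread more, with a median of 13.0% and up to 26.4% in a group. The least abundant count behind any of these values was 227, for Mir22hg.

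Library totals ran from 17228982 to 24694828 counts, and no library was left out. Preadipocyte markers fitted the label, with 8 of 10 above a median of 1 CPM and a summed level of 4014 to 8538 CPM. Of the 5 markers of mature brown adipocytes 1 passed that level (sum 0.552 to 4.88 CPM), as did 1 of 4 endothelial (7.0 to 17.5 CPM) and 1 of 4 macrophage markers (2.26 to 4.65 CPM), with Adgre1 at 0, and none of the 4 skeletal muscle markers (0.142 to 0.663 CPM, with Myod1 at 0) or the 4 epithelial markers (0 to 1.04 CPM). The Insr row read 23.8 ± 1.33 CPM (SD, n = 3) in DKO cells and 67.6 ± 1.70 CPM in basal IR cells, the lowest group mean of a receptor line, where reads from the human receptor and the mouse gene cannot be told apart. The Igf1r row read 27 ± 2.05 CPM in DKO cells and 30.0 to 35.1 CPM as group means of the receptor lines, so reads of both genes remained in every group and the gene counts do not check the deletion.

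Insulin was followed by a higher Dnm3os level in every receptor line. The value was the reason for its choice and is given here as a description, with no test. DKO cells were not given insulin, so whether a rise in any line needed the receptor was not tested. In IR cells the basal libraries read 41.4, 41.1 and 44.3 CPM and the insulin libraries 108, 117 and 124 CPM, a log2 fold change of 1.46 ± 0.053 (SE), or 2.75-fold. In ∆CT cells the level went from 45.6, 45.0 and 42.8 CPM to 124 and 116 CPM (1.43 ± 0.057). The basal and insulin libraries of these lines are far apart, and those of IR and ∆CT lie at the same height in both states. In JMO cells, 42.5, 41.0 and 42.2 CPM became 94.2, 90.3 and 95.6 CPM (1.16 ± 0.053). In K1030R cells, 49.0, 44.6 and 48.2 CPM became 70.1, 70.2 and 76.4 CPM (0.61 ± 0.054). The insulin libraries thus formed 3 steps that did not overlap, IR and ∆CT at the top, JMO between and K1030R lowest, and each step lay above all 15 basal libraries (38.8 to 49.0 CPM). Set against the effect in IR cells, the log2 fold change differed by -0.85 ± 0.076 in K1030R, by -0.31 ± 0.075 in JMO and by -0.03 ± 0.078 in ∆CT cells (SE).

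**Figure D1:**
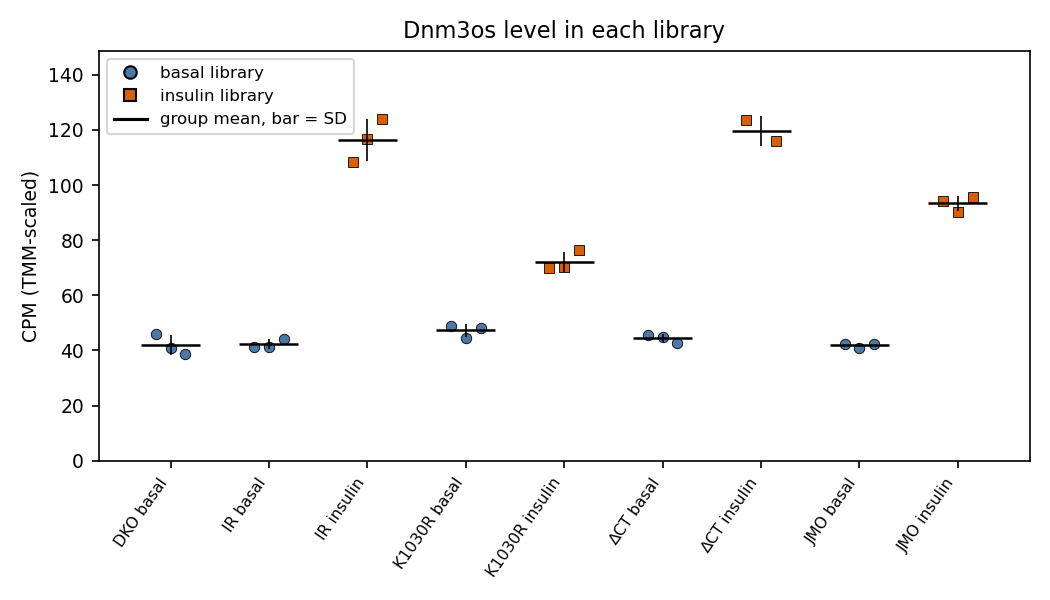
Level of Dnm3os in each of the 26 libraries, as CPM after TMM scaling on a linear axis from 0, with 1 point per library, blue circles for basal and orange squares for insulin, and black lines for the mean and SD of each group. The 15 basal libraries lie between 38.8 and 49.0 CPM, and the insulin libraries rise to 70.1 to 76.4 CPM in K1030R, 90.3 to 95.6 CPM in JMO and 108 to 124 CPM in IR and ∆CT cells.

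Seen among all genes tested, 288 (1.87%) were called with insulin in IR cells, 155 (1.01%) in ∆CT, 56 (0.364%) in JMO and 24 (0.156%) in K1030R cells, at an adjusted p below 0.05 (edgeR's quasi-likelihood test, Benjamini-Hochberg over the 15402 genes). Called higher were, in the same order, 215 (1.4%), 144 (0.935%), 51 (0.331%) and 17 (0.11%). Ordered by log2 fold change among all 15402 genes, Dnm3os stood at place 63 in IR, 69 in ∆CT, 49 in JMO and 264 in K1030R cells. These places describe the value for which it was chosen.

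Of the 6 other members, 2 were called higher with insulin in IR cells and 2 in ∆CT cells (Mir22hg and Snhg1 in both), 1 in K1030R cells (Snhg1) and 1 in JMO cells (Mir22hg), against the shares of all genes given above. None was called lower in any line. DESeq2 called the same number in each line. Of the cell type markers, the macrophage marker Cd68 (0.64 ± 0.154, edgeR adjusted p = 0.0187) and the collagen gene Col1a1 (-0.15 ± 0.040, edgeR adjusted p = 0.0439) were called with insulin in IR cells, and their part in the results was not tested.

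Mir22hg, the primary transcript of miR-22, was the member that came closest to Dnm3os. Its libraries read 12.9, 14.4 and 13.5 CPM in basal IR cells and 29.5, 30.5 and 28.8 CPM with insulin, a log2 fold change of 1.12 ± 0.123 (SE, n = 3 and 3, edgeR adjusted p = 3.93e-06). In ∆CT cells they read 17.7, 19.4 and 11.7 CPM and then 36.0 and 33.2 CPM (1.08 ± 0.130, edgeR adjusted p = 1.98e-05). In both lines the groups were widely separated, and these were the only calls among the 6 members that also passed a test against a minimum fold of 1.5 (edgeR glmTreat adjusted p = 0.0122 and 0.0457), a rule that called 0.221% of all genes in IR, 0.214% in ∆CT, 0.039% in JMO and 0% in K1030R cells. In JMO cells, 19.2, 17.4 and 19.7 CPM became 27.8, 26.6 and 27.9 CPM (0.55 ± 0.119, edgeR adjusted p = 0.0458). In K1030R cells, 20.5, 15.2 and 18.6 CPM stood against 20.5, 17.7 and 19.9 CPM with insulin, 0.10 ± 0.126 on the log2 scale (edgeR adjusted p = 0.985). The JMO groups did not overlap, whereas the K1030R groups did. The insulin effect on Mir22hg differed between K1030R and IR cells by -1.02 on the log2 scale, with an interval of -1.39 to -0.65 (edgeR adjusted p = 0.00383). It was the 1 call among the 6 members in that contrast, in which 0.37% of all genes were called. The difference between JMO and IR cells, -0.57 with an interval of -0.93 to -0.22, did not pass (edgeR adjusted p = 0.394), nor did that between ∆CT and IR cells (-0.04, interval -0.42 to 0.33, edgeR adjusted p = 1). In the contrasts of ∆CT with IR, JMO with IR and JMO with K1030R effects, edgeR and DESeq2 called 0 of the 6 (0.00649%, 0.279% and 0.026% of all genes by edgeR), with 0, 2 and 2 at an unadjusted p below 0.05. The JMO call was at the threshold, since it was lost without any 1 of 18 of the 26 libraries (adjusted p 0.0567 to 0.262), and the ∆CT call was lost when the 2 ∆CT groups were fitted alone (adjusted p = 0.369).

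Snhg1 showed a small rise in the same direction. In IR cells it read 37.4, 35.9 and 33.8 CPM basally and 44.8, 48.8 and 47.5 CPM with insulin, a log2 fold change of 0.40 ± 0.059 or 1.32-fold (edgeR adjusted p = 2.39e-05). In ∆CT cells, 42.4, 43.5 and 40.0 CPM became 54.6 and 55.7 CPM (0.39 ± 0.063, edgeR adjusted p = 0.000113). Neither rise reached 1.5-fold, and in neither line did the groups overlap. In K1030R cells, 46.2, 43.1 and 44.2 CPM became 55.5, 50.5 and 53.7 CPM (0.26 ± 0.057, edgeR adjusted p = 0.0481), and in JMO cells 43.8, 43.4 and 39.9 CPM stood against 50.7, 50.7 and 48.4 CPM (0.24 ± 0.057, edgeR adjusted p = 0.0573). All 4 lines thus had groups that did not overlap, with 2 values close to the threshold on its 2 sides. Non-overlap alone held for 16.2% of all genes in IR, 12.5% in K1030R, 13.7% in JMO and 23.4% in ∆CT cells. The call in K1030R cells was lost without any 1 of 16 of the 26 libraries (adjusted p 0.0536 to 0.308), and none of the 4 tests of a difference between lines was passed for Snhg1 (edgeR adjusted p 0.699 to 1).

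**Figure D2:**
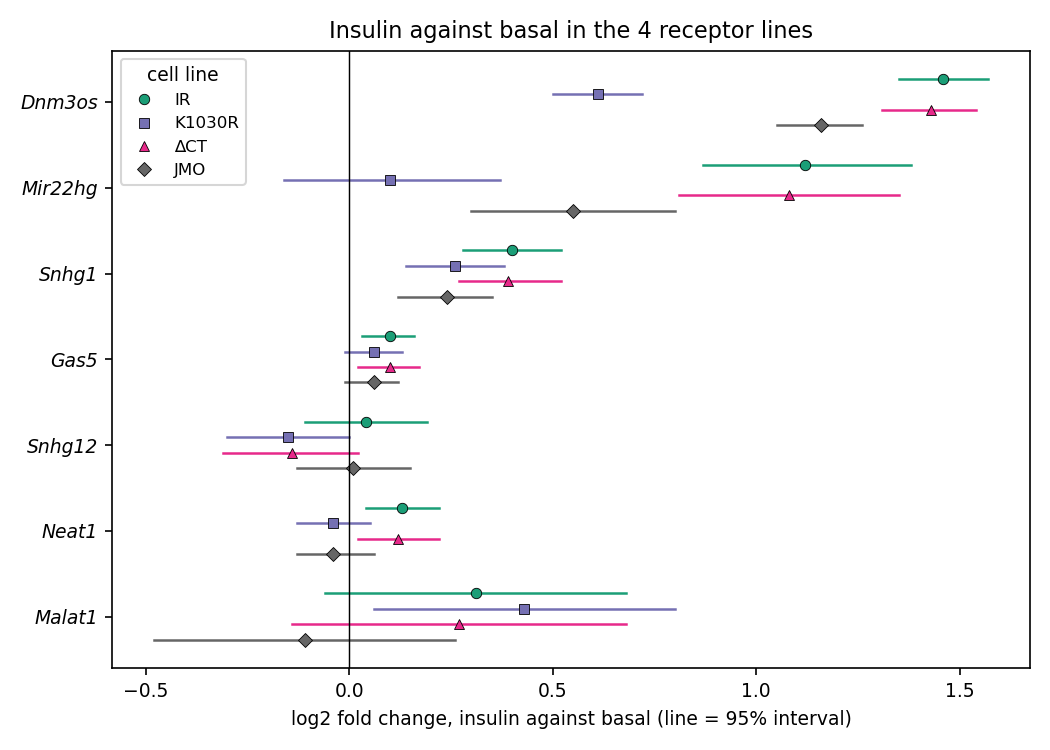
Log2 fold change with insulin against basal of each of the 7 transcripts (rows) in the 4 receptor lines (symbols), with lines for the 95% interval of the edgeR fit. Dnm3os and Mir22hg lie above 1 in IR and ∆CT cells, Snhg1 lies between 0.24 and 0.40 in all lines, Gas5, Snhg12 and Neat1 lie between -0.15 and 0.13, and Malat1 runs from -0.11 in JMO to 0.43 in K1030R cells with wider intervals.

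Gas5, Snhg12, Neat1 and Malat1 were not called with insulin in any line. For Gas5 the differences were small and precisely measured. Its basal IR libraries read 126, 126 and 123 CPM and its insulin libraries 133, 133 and 134 CPM, a difference of 0.10 on the log2 scale with an interval of 0.03 to 0.16 (edgeR adjusted p = 0.146), and the values in the other lines were 0.06 (K1030R), 0.10 (∆CT) and 0.06 (JMO), with a highest upper bound of 0.17. Snhg12 lay between -0.15 and 0.04 across the 4 lines, with bounds of -0.31 to 0.19. In basal IR cells it read 15.1, 15.7 and 15.4 CPM and with insulin 15.2, 16.98 and 15.3 CPM, so that the groups overlapped. The 3 small nucleolar RNA hosts therefore differed in their values, Snhg1 with intervals above 0 in all 4 lines and Snhg12 with intervals that held 0 or touched it.

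The nuclear RNAs varied by line. Neat1 differed by 0.13 in IR cells (307, 314 and 339 CPM against 359, 360.0 and 331 CPM, edgeR adjusted p = 0.144) and by 0.12 in ∆CT cells (366, 365 and 371 CPM against 403 and 394 CPM, edgeR adjusted p = 0.432), and by -0.04 in both other lines. The IR call appeared without IR basal replicate 3 (0.17, edgeR adjusted p = 0.0244). Malat1 read 2245, 2033 and 1667 CPM in basal K1030R cells and 2790.2, 2422 and 2809 CPM with insulin (0.43, interval 0.06 to 0.80, edgeR adjusted p = 0.718), and these groups did not overlap. In IR cells it read 1599.8, 2292 and 2247 CPM and then 3177, 2246 and 2191 CPM, and in ∆CT cells 2165, 2084 and 2568 CPM and then 2227 and 3249 CPM, with 1 library far above the others in each insulin group. Its intervals in IR, K1030R and ∆CT cells reached past a rise of 1.5-fold (upper bounds of 0.68, 0.80 and 0.68), so a rise of that size lay within them.

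**Figure D3:**
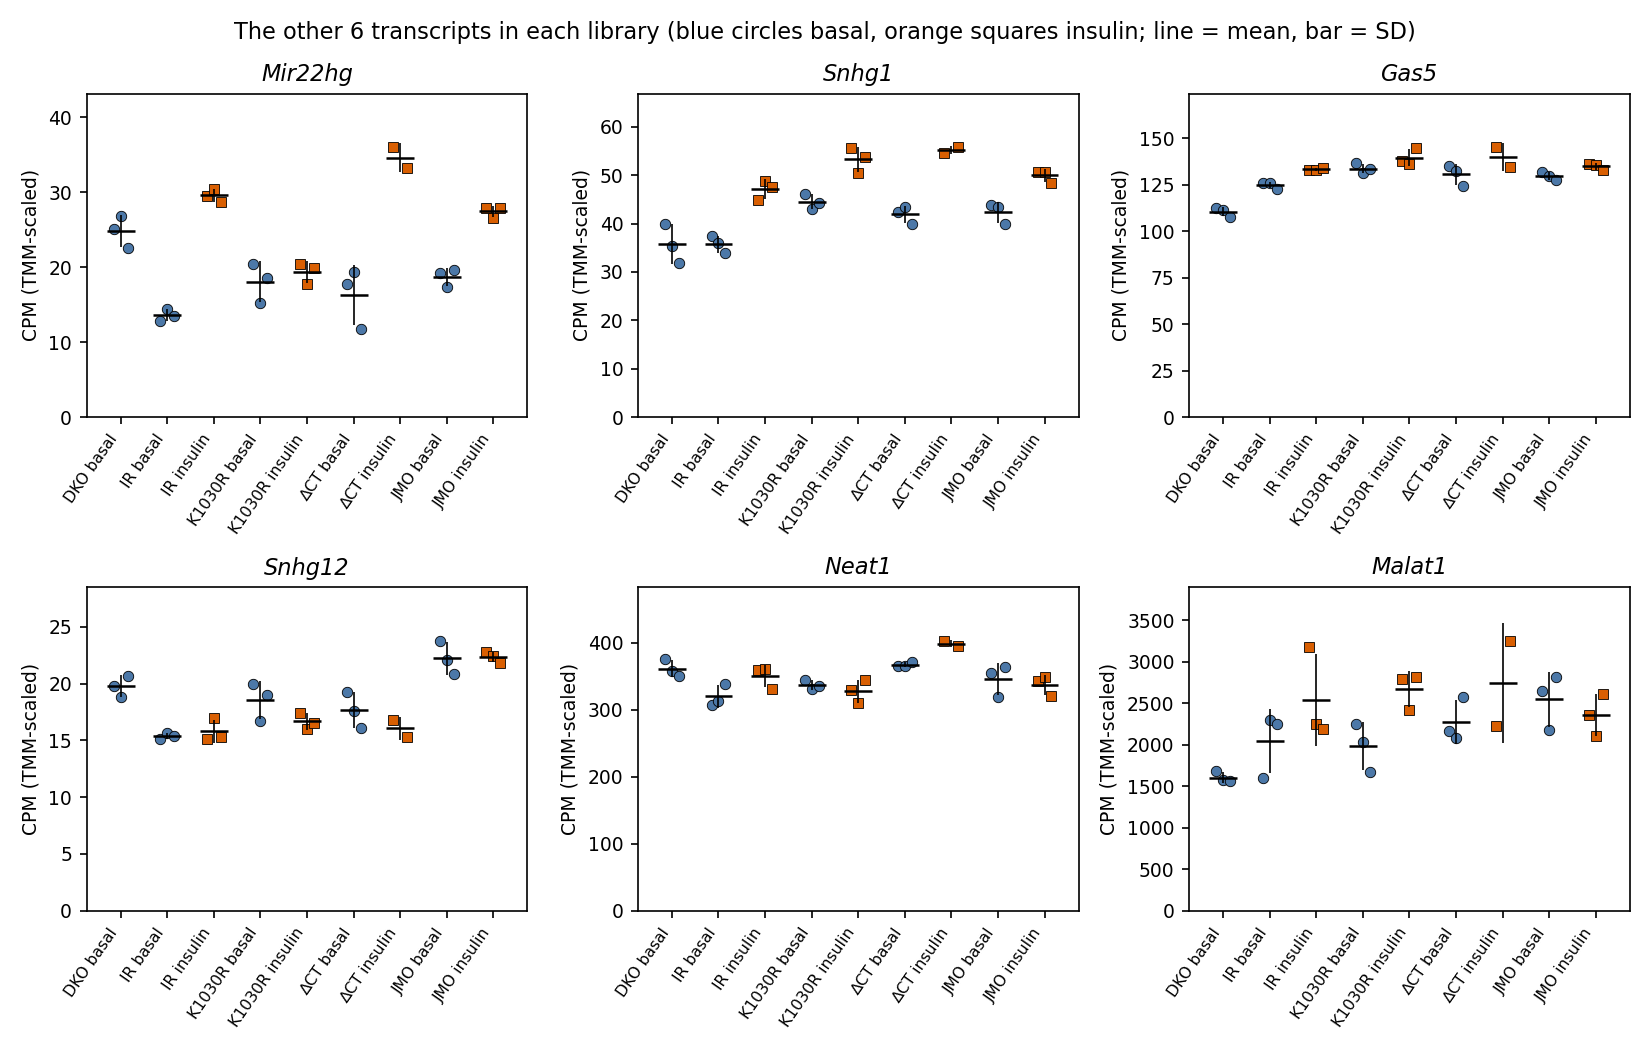
Levels of the 6 other transcripts in each library, as CPM after TMM scaling on linear axes from 0, with blue circles for basal libraries, orange squares for insulin libraries and black lines for the mean and SD of each group. Mir22hg is highest with insulin in IR and ∆CT cells (28.8 to 36.0 CPM) and high in DKO cells (22.6 to 26.9 CPM), and Snhg12 is highest in both JMO groups (20.9 to 23.8 CPM).

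For scale, 3 immediate-early coding genes were set beside the hosts. Fos, a subunit of AP-1, rose by 4.41 ± 0.093 on the log2 scale in IR cells, 5.20 ± 0.118 in ∆CT cells and 1.17 ± 0.111 in JMO cells (edgeR adjusted p = 8.1e-28, 7.71e-27 and 1.03e-08). Egr1, a zinc finger factor, rose by 2.81, 3.58 and 1.15, and Ier2, a short-lived nuclear protein, by 3.36, 3.83 and 1.12 in the same lines. In K1030R cells the values were 0.31 for Fos (edgeR adjusted p = 0.903), 0.46 for Egr1 (edgeR adjusted p = 0.002) and 0.43 for Ier2 (edgeR adjusted p = 0.433). The shape of these 3 genes across lines was thus unlike that of Dnm3os. The coding gene Dusp1, named below for its likeness, rose by 1.53 in IR, 0.65 in K1030R, 1.10 in JMO and 1.43 in ∆CT cells. The JMO response, as a percent of the IR response on the log2 scale, was 79.1% for Dnm3os, 48.8% for Mir22hg, 59.7% for Snhg1, 26.6% for Fos, 41.0% for Egr1 and 33.3% for Ier2. The K1030R response was 41.9% for Dnm3os, 65.4% for Snhg1, 9.18% for Mir22hg and 7.07% to 16.2% for Fos, Egr1 and Ier2. The ∆CT response was 96.2% to 99.5% for the 3 hosts and 114% to 127% for Fos, Egr1 and Ier2. These ratios are descriptions, all of them share the IR libraries, and the differences between genes were not tested.

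**Figure D4:**
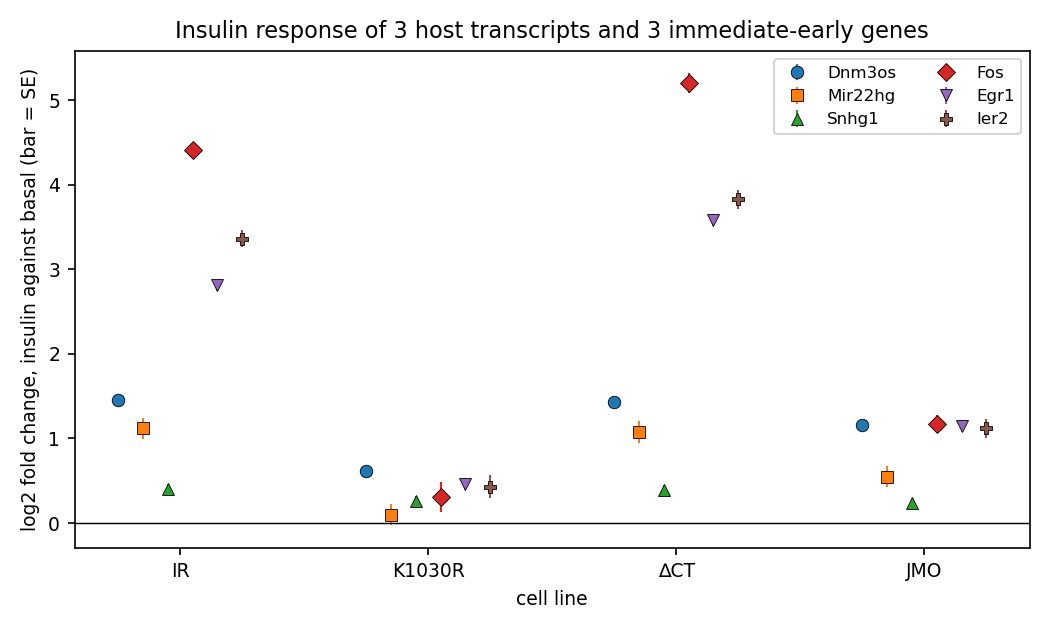
Log2 fold change with insulin against basal in the 4 receptor lines for Dnm3os, Mir22hg, Snhg1 and the immediate-early genes Fos, Egr1 and Ier2, with bars for the SE of the edgeR fit. Dnm3os in JMO cells (1.16) stands level with Fos (1.17), Egr1 (1.15) and Ier2 (1.12), while in IR and ∆CT cells it lies well below them.

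Other noncoding hosts showed few calls with insulin. Among 6 further microRNA hosts that passed the filter, Ftx, the host of an X-linked microRNA cluster, was called higher in IR cells (0.28 ± 0.075, edgeR adjusted p = 0.0439), with 3 at an unadjusted p below 0.05 and 0 called by DESeq2, and the median log2 fold change of the list in the 4 lines was 0.09 to 0.27 against -0.01 to 0 over all genes. Among 14 further small nucleolar RNA hosts, edgeR called 0 in every line, with 2 or 3 per line at an unadjusted p below 0.05, and DESeq2 also called 0. The 7 further nuclear or abundant lncRNAs had 0 calls by either tool, with 1 or 2 per line at an unadjusted p below 0.05. Dnm3os was chosen for its rise with insulin, so its size beside these hosts is no separate result. Among the 6 other members, Mir22hg had the largest log2 fold change in IR (1.12), ∆CT (1.08) and JMO cells (0.55). In K1030R cells it stood at 0.10 (edgeR adjusted p = 0.985), below Malat1 (0.43) and Snhg1 (0.26). The further microRNA hosts had median changes of 0.27 or less on the log2 scale.

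Coding genes beside the hosts were not called with insulin. Dnm3, which contains Dnm3os on the opposite strand, differed by 0.00 ± 0.165 with insulin in IR cells and by 0.00 ± 0.194 in ∆CT cells (edgeR adjusted p = 0.999 and 1). Over all libraries Dnm3 gathered 1943.8 counts against 35416 for Dnm3os. Slc3a2, whose start lies 106 bases from that of Snhg1, differed by -0.02 ± 0.040 in IR and 0.09 ± 0.045 in ∆CT cells (edgeR adjusted p = 0.872 and 0.532). Tlcd2, on the strand of Mir22hg, differed by -0.27 ± 0.231 in IR cells and -0.10 ± 0.248 in ∆CT cells (edgeR adjusted p = 0.652 and 0.94). The further neighbours Wdr81, Zbtb37, Frmd8, Tigd3 and Trnau1ap were not called with insulin by edgeR or DESeq2 in any line either, and the nearest to the threshold was Frmd8 in IR cells, at -0.19 ± 0.057 (edgeR adjusted p = 0.0778). The libraries were reverse-stranded, but whether the counting used the strand is not stated, and if it did not, reads of Dnm3os and Dnm3, or of Gas5 and Zbtb37, could not be told apart where their exons overlap.

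In the basal state the receptor lines differed from DKO cells at 4 of the 7 members in each line, where 49.8% of all genes were called in IR, 41.6% in K1030R, 34.2% in JMO and 46.3% in ∆CT cells. The share of members was thus near that of all genes, and no call reached a minimum fold of 1.5, which in the same order 6.89%, 5.29%, 2.11% and 6.29% of all genes did. Groups without overlap were seen at 54.9%, 50.5%, 47% and 51.5% of all genes. Mir22hg was lower than in DKO cells in all 4 lines and Gas5 higher in all 4. The DKO libraries are shared by these 4 comparisons. Without Dnm3os, whose choice used the basal receptor-line libraries too, the count was 3 of 6 in K1030R and 4 of 6 in each other line. Cell type markers differed between the lines as well, with 6 to 8 of the 8 tested preadipocyte markers called in each line, among them Ly6a (-3.96 in ∆CT), Thy1 (2.12 in K1030R) and Cd34 (2.03 in ∆CT). Fabp4, the 1 tested marker of mature brown adipocytes, was lower in IR (-1.79), K1030R (-0.85) and ∆CT cells (-1.50) and higher in JMO cells (0.83), and the epithelial Krt8 was called lower in JMO cells by edgeR (-3.55) but not by DESeq2. The part of these markers in the differences of the members was not tested.

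Mir22hg read 25.1, 26.9 and 22.6 CPM in DKO cells. The log2 difference from DKO was -0.86 ± 0.126 in IR cells (edgeR adjusted p = 6.36e-06), -0.60 ± 0.123 in ∆CT cells (adjusted p = 0.000383), -0.46 ± 0.123 in K1030R cells (adjusted p = 0.0047) and -0.40 ± 0.120 in JMO cells (adjusted p = 0.0131). No basal library of a receptor line reached the lowest DKO library. The JMO call was lost without DKO basal replicate 2 or JMO basal replicate 2 (edgeR adjusted p = 0.0584 and 0.0543). With insulin, the means of 29.6 CPM in IR, 34.6 CPM in ∆CT and 27.4 CPM in JMO cells lay above the DKO basal mean of 24.9 CPM, and that of K1030R cells (19.4 CPM) below it.

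Gas5, a growth-arrest transcript, read 113, 111 and 108 CPM in DKO cells and 123 to 136 CPM in the 12 basal libraries of the receptor lines, with no overlap. The differences were 0.18 in IR, 0.28 in K1030R, 0.23 in JMO and 0.24 in ∆CT cells, with an SE of 0.034 in each and edgeR adjusted p of 4.96e-05, 3.29e-08, 1.24e-06 and 3.05e-07. Each of these calls held without any 1 library. Zbtb37, which overlaps Gas5 head to head, was also higher in all 4 lines (0.25 to 0.35).

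Snhg1 split the lines. In DKO cells it read 40.0, 35.4 and 31.8 CPM, and IR cells lay at the same level (difference 0.01, interval -0.11 to 0.13, edgeR adjusted p = 0.924). It was higher in K1030R cells by 0.32 ± 0.060, in ∆CT cells by 0.24 ± 0.060 and in JMO cells by 0.25 ± 0.059 (edgeR adjusted p = 3.54e-05, 0.0012 and 0.000931). Its divergent neighbour Slc3a2 was above DKO in all 4 lines, IR cells included (0.79 ± 0.042 in IR, 0.67 in K1030R, 0.41 in JMO and 0.60 in ∆CT cells, edgeR adjusted p from 1.7e-17 to 1.15e-09).

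Snhg12 and Neat1 were lower in IR cells. Snhg12 read 19.8, 18.8 and 20.7 CPM in DKO and 15.1, 15.7 and 15.4 CPM in IR cells, a difference of -0.37 ± 0.073 (edgeR adjusted p = 7.41e-05). Neat1 read 375, 358 and 351 CPM in DKO cells and, as given above, 307 to 339 CPM in IR cells (-0.18 ± 0.045, edgeR adjusted p = 0.00181). Neither was called in the other 3 lines. Malat1 was higher in ∆CT cells (0.50 ± 0.177, edgeR adjusted p = 0.0269) and in JMO cells (0.67 ± 0.177, edgeR adjusted p = 0.0068), from 1680.0, 1574 and 1558 CPM in DKO cells to 2165, 2084 and 2568 CPM and to 2646, 2177 and 2819 CPM. Without DKO basal replicate 2 or 3 or ∆CT basal replicate 3 the ∆CT call was lost (edgeR adjusted p = 0.0678, 0.0726 and 0.109). The mitochondrial ribosomal RNA mt-Rnr1 differed in the same direction (0.46 in ∆CT and 0.56 in JMO cells, edgeR adjusted p = 0.153 and 0.1), and its part in the Malat1 result was not tested.

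Dnm3os itself stood at the DKO level (46.0, 41.1 and 38.8 CPM) in 3 of the basal lines, with differences of 0.02 in IR, 0.09 in ∆CT and 0.00 in JMO cells and intervals within -0.11 to 0.21. In K1030R cells it was 0.18 ± 0.057 higher (edgeR adjusted p = 0.0131), with overlapping libraries, and the call was lost without DKO basal replicate 3 or K1030R basal replicate 1 or 3 (edgeR adjusted p = 0.142, 0.0634 and 0.0542). The basal receptor-line libraries also enter the insulin contrasts for which Dnm3os was chosen, so its basal tests are not independent of the choice.

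**Figure D5:**
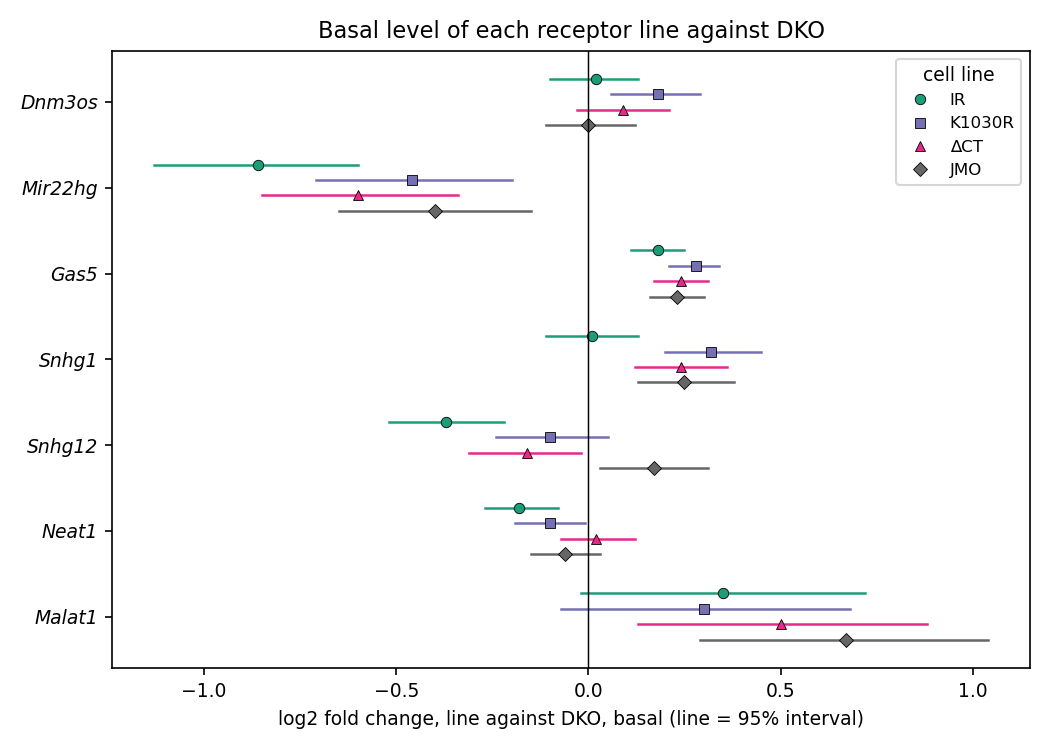
Log2 fold change of the basal level in each receptor line against DKO for the 7 transcripts (rows), with lines for the 95% interval of the edgeR fit. Mir22hg lies below 0 and Gas5 above 0 in all 4 lines, Snhg12 runs from -0.37 in IR to 0.17 in JMO cells, and Dnm3os stays within 0.18 of 0.

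Between the receptor lines in the basal state, 5 of 7 members were called in K1030R against IR (30.2% of all genes), 3 in ∆CT against IR (26.1%), 4 in JMO against IR (42.4%), 2 in JMO against K1030R (35.4%), 1 in JMO against ∆CT (38.8%) and 0 in ∆CT against K1030R (3.43%), where 1 had an unadjusted p below 0.05 and DESeq2 also called 0. All calls against IR cells were higher in the other line (higher calls among all genes 20.7% in JMO, 13.9% in K1030R and 11.2% in ∆CT cells). The basal IR libraries are shared by these comparisons, so their directions are not separate results. Without Dnm3os the count was 4 of 6 in K1030R against IR and 1 of 6 in JMO against K1030R. Snhg1 was higher than in IR cells by 0.31 in K1030R, 0.25 in JMO and 0.23 in ∆CT cells (edgeR adjusted p = 9.35e-05, 0.000914 and 0.00346), and Mir22hg by 0.41 in K1030R and 0.47 in JMO cells (edgeR adjusted p = 0.0234 and 0.00582).

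Of all genes, 42.4% were called in JMO cells against IR, 35.4% against K1030R and 38.8% against ∆CT cells. Snhg12 was the 1 member called in JMO cells against all 3. Its JMO libraries read 23.8, 22.1 and 20.9 CPM basally and 22.8, 22.4 and 21.9 CPM with insulin, above every library of the other 3 receptor lines in either state (15.1 to 19.99 CPM). The basal difference was 0.53 ± 0.072 from IR, 0.27 ± 0.071 from K1030R and 0.33 ± 0.071 from ∆CT cells (edgeR adjusted p = 1.48e-07, 0.00306 and 0.000249). It also lay above the DKO libraries without overlap, by 0.17 ± 0.070 (edgeR adjusted p = 0.0592).

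Several of the K1030R differences from IR cells turned on single libraries. The Mir22hg, Dnm3os and Gas5 calls were each lost without 3 or 4 of the libraries taken out in turn, among them K1030R basal replicate 1 for all 3 (edgeR adjusted p = 0.118, 0.128 and 0.104). Without that library the Snhg12 call was lost too (edgeR adjusted p = 0.0507), and the count of called members fell from 5 to 1. Without IR basal replicate 1, IR basal replicate 3 or K1030R basal replicate 3 the count was 3, 3 and 2. For ∆CT against IR the count rose from 3 to 5 without ∆CT basal replicate 3, the library with the lowest Mir22hg level of its group (11.7 CPM). Snhg12 in that contrast lost its call without any of 5 libraries (edgeR adjusted p 0.065 to 0.271), and Neat1 in JMO against IR without any of 9 (0.0505 to 0.213).

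For Mir22hg and Dnm3os the lines stood in another order with insulin. The Snhg1 mean was lowest in IR cells among the receptor lines in both states (35.7 CPM basally and 47.0 CPM with insulin). With insulin libraries in place of basal ones, the Mir22hg difference of K1030R from IR cells was -0.61 (edgeR adjusted p = 0.00032), while basally it was 0.41. It was higher in ∆CT than in K1030R cells by 0.84 (edgeR adjusted p = 0.000262). For Dnm3os, given without a test, the difference with insulin was -0.69 for K1030R against IR cells and 0.37 for JMO against K1030R cells, where the basal differences were 0.16 and -0.17. For Snhg12 the JMO libraries were also higher with insulin, by 0.50 than IR, 0.42 than K1030R and 0.48 than ∆CT cells (edgeR adjusted p = 6.17e-07, 1.07e-05 and 1.12e-05).

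Genes of proteins that act on these RNAs had at most 2 calls per list after 15 min of insulin, beside 1.87% of all genes in IR and 1.01% in ∆CT cells. Of 14 microRNA processing factors, Tnrc6a, an Argonaute partner, was called higher in IR cells (0.13 ± 0.031, edgeR adjusted p = 0.014). Of 23 paraspeckle proteins, 2 were called higher in IR cells, Cpsf7, a cleavage factor subunit (0.12 ± 0.031, edgeR adjusted p = 0.0376), and the splicing factor Hnrnph1 (0.20 ± 0.045, edgeR adjusted p = 0.0133), and Hnrnph1 again in ∆CT cells (0.22 ± 0.050, edgeR adjusted p = 0.0164). The 12 box C/D snoRNP proteins and the 15 nonsense-mediated decay factors had 0 calls in every line by edgeR and DESeq2, with 0 to 2 per line at an unadjusted p below 0.05.

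Against DKO, where 49.8% of all genes were called and 24.1% were lower in IR cells, no snoRNP protein or decay factor passed a minimum fold of 1.5 in any line. In basal IR cells 7 of 12 box C/D snoRNP proteins were lower and 0 higher (median -0.22, against 0.01 over all genes), led by Nop56 (-0.63 ± 0.069), with Fbl and Nop58 at -0.45. These are core proteins of the particle that carries the box C/D class of snoRNAs. In the other lines 1 to 4 were lower and 1 or 2 higher. Of 15 decay factors 8 were lower in IR cells and 0 higher, among them Smg5 (-0.39 ± 0.040). Of 14 microRNA processing factors 4 were higher and 3 lower in IR cells (median -0.04). Dicer1, which cuts the hairpins of Dnm3os and Mir22hg, was among the lower (-0.41 ± 0.035, edgeR adjusted p = 8.76e-12). Prkra was among the higher (0.37 ± 0.072). Among the 14 further small nucleolar RNA hosts, Snhg15 (-0.96 in IR) and Snhg17 (-0.50 in IR) were lower and Snhg18 higher (0.92 in ∆CT), so the class moved in both directions.

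The genes whose pattern over the 26 libraries was most like that of each member were named by Pearson's r of log2 CPM, as a description, since all points share the lines and the insulin contrast. For Dnm3os they were Rnd3 (r = 0.917), Dusp1, a MAP kinase phosphatase (0.899), and Ier2 (0.890). Rnd3 changed with insulin by 0.40 in IR, 0.18 in K1030R, 0.25 in JMO and 0.41 in ∆CT cells on the log2 scale, and Dusp1 by 1.53 in IR, 0.65 in K1030R, 1.10 in JMO and 1.43 in ∆CT cells, beside 1.46, 0.61, 1.16 and 1.43 for Dnm3os and the larger range of Ier2 given above. The promoter window of Rnd3 held a CArG box and that of Dusp1 did not. No window was at hand for Ier2 or Egr1, and that of Fos held no CArG box.

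For Mir22hg the 3 most alike were Ptgs2, which encodes a prostaglandin synthase (r = 0.926), Srsf5, a splicing factor (0.904), and Ier3 (0.896). Ptgs2 shared both features of Mir22hg in IR cells, lower than DKO basally (-0.86 ± 0.080) and higher with insulin (1.64 ± 0.077), but in JMO cells it differed little with insulin (0.25, edgeR adjusted p = 0.262). Snhg1 was most like Enc1 (0.879), Rnd3 (0.849) and Gas5 (0.842), so a pair of small nucleolar RNA hosts lay close to each other. Snhg12 was most like Kif26b (0.924), Galnt13 (0.918) and Zc3h12a (0.917), and its correlation with Gas5 was -0.11 and with Snhg1 0.00. For Gas5 the leading genes were the unnamed 2810021J22Rik and 6820431F20Rik with Cenpt, a centromere protein (0.881 to 0.899). Neat1 had no close partner, with Bclaf1, Ppif and Ints6 at 0.643 to 0.666. Malat1 was most like Gm10557, mt-Rnr1 and Nfatc3 (0.706 to 0.743), and mt-Rnr1 ran from 223 to 521 CPM over the libraries.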

How the data were processed

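Polyadenylated RNA of 26 reverse-stranded libraries was sequenced by the authors, who trimmed reads with fastp (Phred quality of at least 15), quantified them with kallisto against Ensembl transcripts and deposited expected counts per gene (79.9% of the values whole). Tool versions and the strand setting of the counting are not given in the sources used here. Here the counts were rounded, genes above 0.5 CPM in at least 4 libraries were kept, libraries were TMM-scaled, and all 9 groups were fitted together with edgeR 4.0.16 (R 4.3.3) by its quasi-likelihood test with robust dispersions. P-values were Benjamini-Hochberg adjusted over 15402 genes and called below 0.05. A second rule tested for a fold over 1.5 (glmTreat). Intervals are unadjusted 95% intervals of the fit. CPM are TMM-scaled, and deviations are SD over libraries.

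The common biological coefficient of variation was 4.44%. Replicates differed by more than sampling noise in all 25 pairs (chi-square per degree of freedom of 2.92 to 23.6). The script was tested on simulated data. The members and lists were chosen with earlier results of these data known, and Dnm3os for its insulin response, so its insulin contrasts carry no p. All 7 members were named, and from each list those with the largest changes among the called genes, together with the 3 genes of highest Pearson's r with each member. Alternatives were DESeq2 1.42.0, limma 3.58.1, other scaling and filters, unrounded counts, fits of the compared groups alone, insulin in place of basal libraries, a replicate block and leaving out each library. Gene positions come from a GRCm38 annotation and sequences from RefSeq.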

Additional observations from a re-analysis of the deposited data

Results flagged for a closer look

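The insulin effect on Mir22hg differed between K1030R and IR cells by -1.02 on the log2 scale, by an interaction test in the fit of all libraries (edgeR adjusted p = 0.00383). The means were 13.6 CPM basally and 29.6 CPM with insulin in IR cells, and 18.1 and 19.4 CPM in K1030R cells. The call held when each of the 26 libraries was left out in turn (adjusted edgeR p up to 0.0249), and it was lost when a minimum fold of 1.5 was required. The basal level also differed between these lines, and its part in the difference was not tested.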

How the results depend on the processing

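Requiring a fold over 1.5 in edgeR left 1 called member of the 6 with insulin in IR and 1 in ∆CT cells and 0 in the K1030R and JMO insulin contrasts, in every contrast with DKO or between lines that had calls, and in the K1030R against IR difference of insulin effects. The same requirement in limma left 1 in IR cells and 0 elsewhere. RLE scaling and a filter of 10 counts each gave 0 with insulin in JMO cells. With no filter the count was 4 in IR, 2 in K1030R and 3 in JMO cells with insulin, 2 in ∆CT against K1030R, 3 in JMO against ∆CT, and 2 in each of the JMO against IR and JMO against K1030R differences of insulin effects. That fit put unlimited weight on the spread shared across genes for every member (infinite prior degrees of freedom). In the main fit this weight was 0.159 for Malat1. Its part in these counts was not tested. Fitting only the compared groups gave 1 with insulin in ∆CT cells, 2 in JMO cells and 1 in the JMO against IR difference. With insulin libraries the count over the 6 members without Dnm3os was 2 in K1030R against IR (4 basally), 2 in ∆CT against K1030R (0), 1 in JMO against IR (4), 2 in JMO against K1030R (1) and 3 in JMO against ∆CT (1). The signs then turned for Dnm3os, given without a test, in K1030R against IR (-0.69), ∆CT against K1030R (0.73) and JMO against K1030R (0.37), for Mir22hg in K1030R against IR (-0.61), ∆CT against K1030R (0.84), JMO against IR (-0.11) and JMO against ∆CT (-0.33), and for Neat1 in JMO against IR (-0.05).

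Leaving out each library in turn gave counts of 2 to 3 with insulin in IR cells, 0 to 1 in K1030R, 2 to 2 in ∆CT and 0 to 2 in JMO cells, of 4 to 5 for IR and 3 to 5 for each other line against DKO, of 1 to 5 for K1030R against IR, 2 to 5 for ∆CT against IR, 0 to 0 for ∆CT against K1030R, 3 to 4 for JMO against IR, 1 to 2 for JMO against K1030R and 1 to 2 for JMO against ∆CT, and, for differences of insulin effects, of 1 to 1 for K1030R, 0 to 0 for ∆CT and 0 to 1 for JMO against IR and 0 to 0 for JMO against K1030R. The ∆CT against IR difference of the Dnm3os insulin effect ran from -0.08 to 0.01, the latter without IR insulin replicate 3 or ∆CT insulin replicate 2. The cause of these changes was not tested. In 110 settings of 29 values that were not called, the sign changed with no call on either side.

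Same-numbered libraries did not deviate together over all tested genes (median residual correlation -0.0011 over 100 pairs, against -0.0016 over 200 pairs of different number). Whether the numbers pair the libraries at some genes was not tested. With a replicate block the JMO insulin count stayed at 1, with Mir22hg lost (adjusted p = 0.0524) and Snhg1 gained (adjusted p = 0.0236), and ∆CT against DKO had 5 calls. Mir22hg and Malat1 were the members with the least stable spread between libraries, and for Malat1 this limits what can be seen.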
